A study of Caenorhabditis elegans with 12 samples.

Results

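Trimethylation of lysine 4 on histone H3 (H3K4me3) was mapped by chromatin immunoprecipitation sequencing (ChIP-seq) in whole larvae of Caenorhabditis elegans, and the 247 H3K4me3 peaks on chromosome V are described here. They were taken as all listed peaks on that chromosome and make up 15.8% of the 1562 peaks in the H3K4me3 list. No peak was picked by its score or width, but V itself was chosen with earlier results of these data known. The other autosomes, I to IV, hold 1301 peaks and chromosome X holds 14. The second list, of the intestinal transcription factor ELT-2, has 132 of its 624 peaks on V.

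All groups were wild-type N2 larvae at the third larval stage (L3), raised in liquid at 25 °C on HB101 bacteria and harvested 24 to 26 h after feeding. There were 2 H3K4me3 ChIP libraries, 3 ELT-2 ChIP libraries made with a monoclonal antibody, 2 mock IgG libraries, 3 input libraries and 2 RNA-seq libraries, and no group carried a mutation or a treatment. Each deposited list is 1 list per antibody, with a start, end, summit and score for every peak and no value for a single library. The spread between replicates therefore could not be measured, read depth is unknown, and every interval below covers counting error only. Whole larvae were used, so the lists do not tell tissues apart. The lists hold only scores above 30, and their names read as removal of IgG peaks, blacklisted and high-occupancy regions. A stretch without a listed peak may therefore hold peaks that were left out. Positions are 1-based and refer to ce10. No genome or gene annotation of that build was used here, so peaks are named by position and no gene or sequence is given.

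H3K4me3 is written by SET1/COMPASS-type methyltransferases and is found on the nucleosomes around the start sites of transcribed genes, where it is widely used as a mark of active promoters. The autosomes of C. elegans have gene-dense, conserved centres and arms that recombine more and carry more repeats and more histone H3 lysine 9 methylation. The arms of chromosome V are also known for large families of chemoreceptor genes, many of them expressed in few neurons. ELT-2 is a GATA-family regulator of intestinal genes.

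Listed H3K4me3 peaks were more frequent in the middle of chromosome V than in its outer parts, and fewest on the right. Each chromosome was divided into 3 equal parts of its span, which runs from the first to the last listed peak of either antibody. On V these parts are 6.89 Mb each. The left part held 76 peaks, the middle part 128 and the right part 43. The middle part thus held 51.8% of the peaks of V (95% Wilson interval 45.6 to 58.0), where an even spread would give 33.3%.

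On none of the other 4 autosomes did the middle part hold as large a share. It was 38.0% on I (33.2 to 43.05), 32.6% on II (27.0 to 38.8), 29.7% on III (24.7 to 35.3) and 20.98% on IV (17.3 to 25.2). Over I to IV together 388 of 1301 peaks lay in the middle part (29.8%). V over I to IV gave an odds ratio of 2.53 (95% CI 1.90 to 3.37; p = 5.84e-11 by Fisher's exact test, two-sided, and adjusted p = 2.92e-10 over 5 tests). The test treats peaks as independent, which neighbours are not. The ratio was 2.33 when summits up to 5000 bp apart were merged. The chromosome was proposed for description with such results known, so the test is not independent evidence of its direction.

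**Figure D1:**
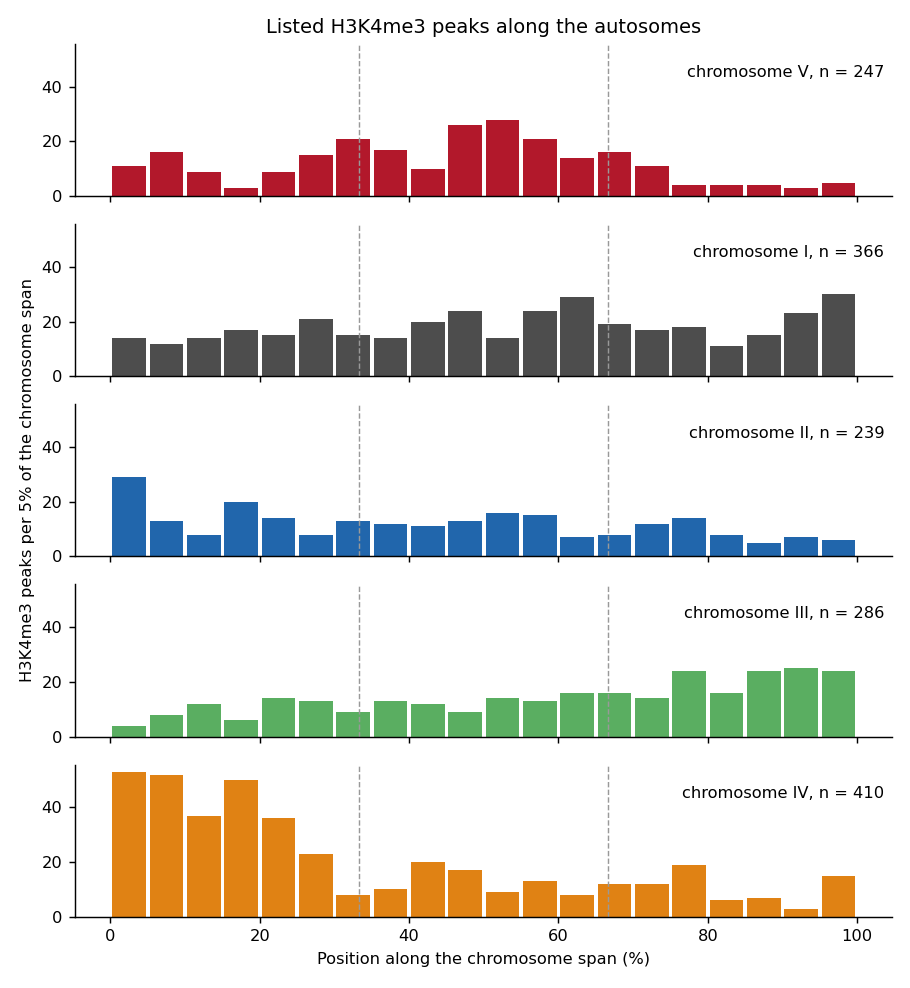
Number of listed H3K4me3 peaks in each 5% of the chromosome span, for chromosome V (top) and the other 4 autosomes; dashed lines divide the span into 3 equal parts. On V the fullest bins, with 26 and 28 peaks, lie on both sides of the midpoint, and the 5 bins of the last 25% hold 3 to 5 peaks each.

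The large central share of V went with ends sparse in listed peaks rather than with an unusually dense middle. In the middle part, V had 18.6 peaks per Mb (exact Poisson interval 15.5 to 22.1), against 27.7 on I, 15.4 on II, 18.5 on III and 14.9 on IV. The middle of V was therefore within the range of the other autosomal centres. The left part of V had 11.03 peaks per Mb (8.69 to 13.8) and the right part 6.24 (4.52 to 8.41). Of the 15 parts of the 5 autosomes, these were the 2 with the fewest peaks per Mb. The next lowest was the right part of II, at 11.2 per Mb (8.50 to 14.5), whose interval overlaps that of the left part of V and lies above that of the right part. The density of the middle part over the mean of the outer parts was 2.15 on V, 1.22 on I, 0.969 on II, 0.846 on III and 0.531 on IV. The pooled share of I to IV also includes dense ends, with 44.5 peaks per Mb in the left part of IV and 30.1 in the right part of III. Without IV the odds ratio for the middle part was 2.10.

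**Figure D2:**
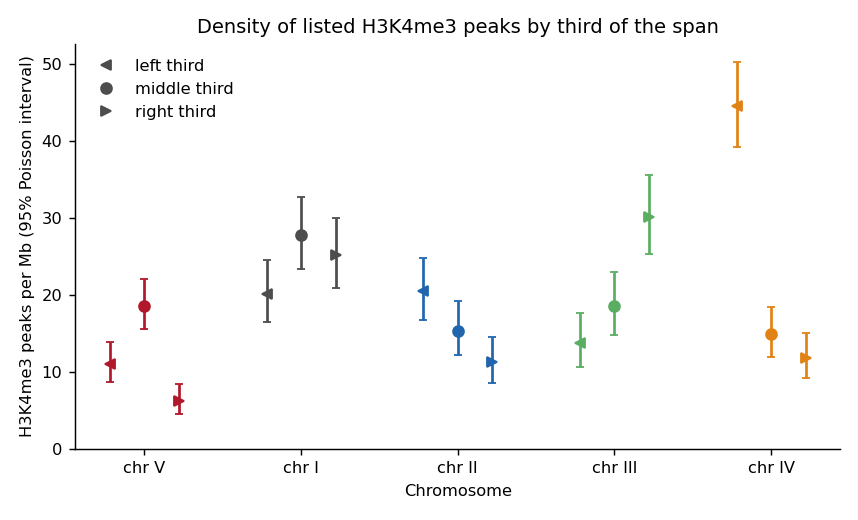
Listed H3K4me3 peaks per Mb in the left, middle and right part of chromosome V and of chromosomes I to IV, with exact Poisson intervals. The middle part of V, at 18.6 per Mb, sits among the other middle parts, and its right part, at 6.24 per Mb, is the lowest point.

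Along V the count per 1 Mb window did not climb evenly from the left end to the middle. The first 2 windows held 10 and 16 peaks, the window from 3 to 4 Mb held 4, and a fuller block followed. From 6 to 13 Mb lay 138 of the 247 peaks (55.9%), and the 5 windows with 20 or more peaks were all in this block. The fullest window, from 10 to 11 Mb, held 25 peaks, beside a median of 10.5 over the 20 full windows. Beyond 16 Mb there were 17 peaks in all, with 5, 3, 2, 4 and 3 in the successive windows. The block was not even, since the window from 8 to 9 Mb held 12 peaks between neighbours of 21 and 20.

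The shortest stretch that holds 124 of the peaks, the smallest number that is at least 50% of them, ran from summit 6656619 to summit 12598946 and covered 5.94 Mb, or 28.8% of the span. The same measure gave 43.5% of the span on I, 41.5% on II, 35.0% on III and 21.5% on IV. By this measure IV was more concentrated than V, but its stretch lay at the left end, from 255365 to 3968094. The median position was at 47.5% of the span on V, 55.5% on I, 41.5% on II, 64.7% on III and 21.7% on IV.

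Neither outermost H3K4me3 peak of V was a strong one. The first peak of V, from 7506 to 8227, scored 54.39 and was 722 bp wide. The last, from 20493824 to 20494108, scored 48.53 and was 285 bp wide. It lay 174523 bp from the nearest ELT-2 summit.

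Spacing on V combined a share of close neighbours near that of the other autosomes with very long stretches without a listed peak. The median distance between neighbouring summits was 44487 bp on V (interquartile range 8294 to 92057), against 26207 bp on I, 35022 bp on II, 28441 bp on III and 19112 bp on IV. At the short end, measured in bp, V was close to the other autosomes, although its listed peaks were sparser. Of its 247 peaks, 93 had another H3K4me3 summit within 5000 bp (37.7%), against 486 of 1301 on I to IV (37.4%), an odds ratio of 1.01 (95% CI 0.756 to 1.35; p = 0.943 by Fisher's exact test, two-sided, and adjusted p = 0.943). The direction of so small a difference turned with the distance used, and the odds ratio was 0.788 within 20000 bp. The interval leaves room for a moderate difference either way, and the test counts both peaks of a pair as independent. A share within a fixed distance also moves with density, for which no adjustment was made. The median gap over the mean gap was 0.534 on V, against 0.6375 on I, 0.548 on II, 0.592 on III and 0.453 on IV.

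Long gaps over a fixed limit were more frequent on V, the autosome with the fewest listed peaks per Mb. It had 26 gaps over 200 kb, 10.6% of its 246 gaps, against 3 on I, 15 on II, 10 on III and 17 on IV. These 26 gaps added up to 10.3 Mb, or 50.0% of the span of V. On the other autosomes such gaps took up 4.91% of the span on I, 29.5% on II, 18.2% on III and 30.6% on IV. The longest gap was 904872 bp on V, against 250001 bp on I, 415315 bp on II, 404549 bp on III and 490793 bp on IV. The coefficient of variation of the gaps was 1.60 on V, 1.08 on I, 1.25 on II, 1.20 on III and 1.64 on IV. A fixed limit is passed more often where peaks are sparse. The mean gap was 83277 bp on V, against 41109 bp on I, 63905 bp on II, 48008 bp on III and 42214 bp on IV. No test was made of the long gaps, whose limit was set after the values were seen, and the part of density in them was not tested.

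**Figure D3:**
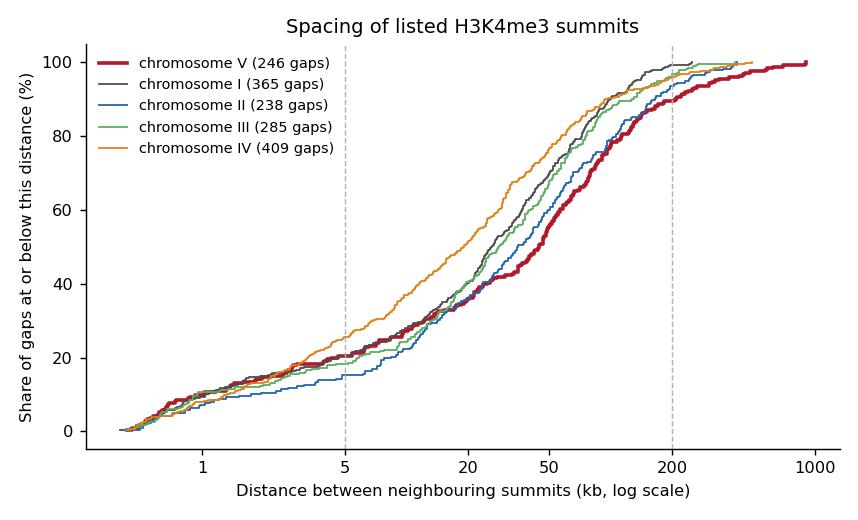
Share of gaps between neighbouring H3K4me3 summits at or below each distance (kb, log scale), for chromosome V and chromosomes I to IV; dashed lines mark 5 and 200 kb. The line of V runs with the others up to 5 kb, where it stands at 20.3%, and lies below all of them at 200 kb, since 10.6% of its gaps are longer.

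The long gaps were mostly in the outer parts. The right part held 11 of them, covering 5.20 Mb, the left part 10, covering 3.70 Mb, and the middle part 5, covering 1.43 Mb. The median gap was 68432 bp in the right part, 48165 bp in the left part and 33555 bp in the middle part. The first 4 of the 5 longest gaps were all in the right part. The longest lay between summits 16965636 and 17870508, and the second, of 894218 bp, between 18087165 and 18981383. The third, of 694727 bp, lay between 15578354 and 16273081. The fourth, of 625278 bp, lay between 19644291 and 20269569. The fifth, of 583812 bp between 3029342 and 3613154, was the only one in the left part. The peaks at their edges were of low to middling score, from 32.29 to 81.82, except the peak from 18981212 to 18981525, 314 bp wide, which scored 140.85.

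Grouped peaks occurred in every part of V. With neighbouring summits within 5000 bp joined, the 247 peaks formed 197 sites, of which 154 were single peaks, 37 pairs, 5 groups of 3 and 1 group of 4. Groups numbered 13 in the left part, 21 in the middle part and 9 in the right part. The share of peaks with such a neighbour was 36.8% on the left, 36.7% in the middle and 41.9% on the right, a difference that was not tested. The group of 4 lay from 9544702 to 9549172, spanning 4471 bp in the middle part. Its peaks, from left to right, scored 143.21, 85.11, 127.18 and 48.9 and were 1083, 863, 579 and 383 bp wide. The nearest ELT-2 summit to it was 38100 bp away.

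Many of the close neighbours were pairs of peaks with little space between them. In 26 of the 246 pairs of neighbours (10.6%) fewer than 300 bp lay between the end of one peak and the start of the next, against 10.7% on I, 7.14% on II, 9.12% on III and 9.05% on IV. On V the space ranged from 44 to 264 bp with a median of 146 bp, and the summits lay a median of 626 bp apart. Of these pairs 10 were in the left part, 13 in the middle part and 3 in the right part. The higher score of a pair was a median of 1.50 times the lower, and up to 5.75 times.

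Some of these pairs were evenly matched and others were not. In the pair from 6017016 to 6018247, with 134 bp between its peaks, the left peak scored 218.6 and the right one 250.8. Both are among the 10 highest of V. In the pair from 103447 to 104691, with 118 bp between, the left peak scored 188.0 and the right one 32.68, close to the lowest score listed. The third-highest peak of V, at 310.6, had a neighbour of 54.62 that began 108 bp beyond its end. The 51 peaks in such pairs, 1 of which belonged to 2 pairs, had a median score of 65.75 and a median width of 574 bp, against 51.12 and 536 bp for the 196 other peaks of V, a difference that was not tested. Whether such a pair is 1 mark split by the peak caller or 2 marked sites cannot be told from the lists.

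Widths on V lay within the range of the other autosomes. The median was 545 bp (interquartile range 392.5 to 794, range 220 to 2813), against 531 bp on I, 464 bp on II, 504 bp on III and 630 bp on IV. Of the peaks of V 126 (51.0%) were wider than the autosomal median of 543 bp, against 646 of 1301 on I to IV (49.65%). V over I to IV came to an odds ratio of 1.06 (95% CI 0.797 to 1.40; p = 0.729 by Fisher's exact test, two-sided, and adjusted p = 0.911). The direction turned under 4 of the 7 alternatives tried, among them the upper quartile of width as the limit, where the ratio was 0.840. Together the peaks of V covered 162.4 kb, or 0.786% of its span, against 1.70% on I, 0.898% on II, 1.35% on III and 1.86% on IV.

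Peaks in the middle of V had a higher median width than those towards the ends. The median width was 504 bp in the left part, 592.5 bp in the middle part and 440 bp in the right part. The lower quartile followed the same order, at 384.8, 436.2 and 343.5 bp, and so did the upper quartile, at 760.8, 832 and 678.5 bp. The interquartile ranges overlapped widely, and the difference was not tested. On the other autosomes the highest median width was in the right part of I, at 582.5 bp, and of III, at 572.5 bp, and in the left part of II, at 499.5 bp, and of IV, at 709.5 bp. Peaks over 1000 bp numbered 13 of 76 on the left (17.1%), 21 of 128 in the middle (16.4%) and 4 of 43 on the right (9.30%). From 16 to 17 Mb the median width was 312 bp, the lowest of any window, over 5 peaks.

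The scores, which are the authors' own from the peak caller and are compared within the list only, included a smaller share of high values on V. The median was 52.69 on V (interquartile range 36.88 to 85.56), against 62.33 on I, 53.92 on II, 64.52 on III and 50.16 on IV. Above the autosomal median score of 57.0 lay 116 of 247 peaks of V (46.96%) and 658 of 1301 on I to IV (50.6%), an odds ratio of 0.865 (95% CI 0.652 to 1.15; p = 0.331 by Fisher's exact test, two-sided, and adjusted p = 0.552). Above the autosomal upper quartile of 104.1, however, lay 17.8% of the peaks of V and 26.4% of those on I to IV. At this limit the ratio was 0.606 (95% CI 0.417 to 0.864; p = 0.0039 by Fisher's exact test, two-sided, and adjusted p = 0.00975), so the call depended on the limit chosen. Scores over 200 were reached by 11 peaks of V (4.45%), against 10.1% on I, 7.11% on II, 11.5% on III and 9.76% on IV. Of the 100 highest autosomal peaks 6 were on V, against 27 on I, 12 on II, 24 on III and 31 on IV.

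By position the order of median scores was the reverse of that of density, which was not tested. The interquartile ranges overlapped widely, and the upper quartiles did not follow this order. The median score was 59.8 in the left part (interquartile range 35.9 to 94.6), 48.24 in the middle part (35.98 to 80.6) and 69.0 in the right part (47.4 to 77.9). Scores under 40 made up 36.8% on the left, 38.3% in the middle and 20.9% on the right. The right part had the smallest share of low scores. Scores over 100 made up 16.3% there (7 of 43 peaks), close to the 18.0% in the middle, and 22.4% on the left. On the other autosomes the middle part had the lowest of the 3 medians on I, at 56.26, and the highest on II, at 62.86, and IV, at 57.99. On III its median, 68.12, lay between those of the outer parts.

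**Figure D4:**
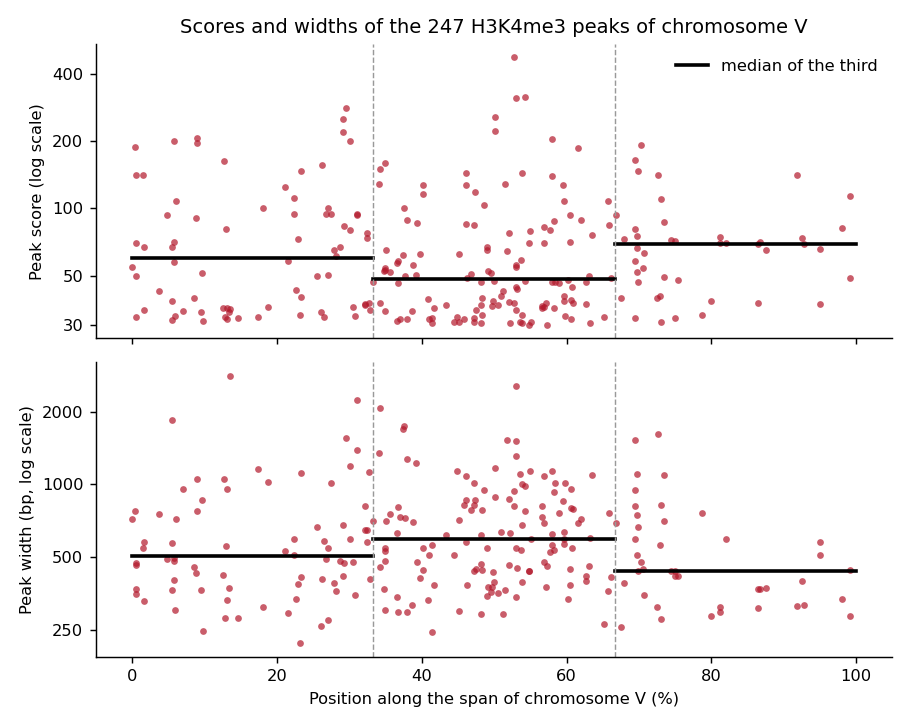
Score (top) and width in bp (bottom) of each of the 247 H3K4me3 peaks of chromosome V against position along its span, both on log scales, with the median of each of the 3 parts as a black line. Median scores are 59.8, 48.24 and 69.0 and median widths 504, 592.5 and 440 bp, so the middle part has the lowest median score and the highest median width.

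The share of peaks in the middle of V was larger among low-scoring peaks. Of the 131 peaks at or below the list median of 57.0, 79 lay in the middle part (60.3%, 95% Wilson interval 51.75 to 68.3). Of the 116 peaks above it, 49 did (42.2%, 33.6 to 51.3). On I the same comparison gave 43.9% at or below the median and 33.2% above it, while II gave 27.2% and 38.6%, III 27.9% and 31.1%, and IV 18.1% and 24.7%. The difference between low and high scores was not tested. For peaks above the list median, V over I to IV gave 1.60 as the odds ratio of lying centrally (95% CI 1.05 to 2.45; p = 0.0244 by Fisher's exact test, two-sided), and it no longer passed after adjustment (adjusted p = 0.0609).

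In finer steps the middle part held 57.0% of the 86 peaks of V that scored up to 40, and 64.7% of the 51 peaks from 40 to 60. It held 36.5% of the 63 peaks from 60 to 100 and 48.9% of the 47 peaks over 100. On I to IV the shares over the same steps were 25.2%, 33.9%, 32.4% and 28.9%. The share of V was the higher in each step, with overlapping Wilson intervals only from 60 to 100.

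The highest peaks of V lay in 2 short regions, apart from 2 of them. Of the 10 highest, 6 were in the middle part, 4 in the left part and none in the right part. The highest, from 10896670 to 10897485, was 816 bp wide and scored 473.9, which put it at rank 11 of the 1562 peaks. It was followed by the peak from 11228129 to 11228905 at 314.7 and that from 10965559 to 10966863, 1305 bp wide, at 310.6. These 3 lay within 332236 bp, in the 2 fullest windows of the chromosome.

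Another 2 of the 10 lay some way to their left. They ran from 10351926 to 10353098 with a score of 256.3 and from 10361942 to 10362831 with 221.2. On the left, the peak from 6099014 to 6100571 was 1558 bp wide and scored 282.5, and it lay close to the evenly matched pair from 6017016 to 6018247. The others were the peak from 11981343 to 11982478 at 204.7 and that from 1872109 to 1872884 at 205.8, the only one of the 10 far out on an arm. In the right part the highest score was 193.0. None of the 10 overlapped an ELT-2 peak, and the nearest ELT-2 summit lay 6752 to 179242 bp away.

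Of the 5 widest peaks of V, 3 scored under 40. The widest, from 2789647 to 2792459, was 2813 bp wide and scored 35.38. The second, from 10971921 to 10974480, was 2560 bp wide and scored 35.14, and 5057 bp lay between it and the third-highest peak. The others of the 5 widest ran from 6432743 to 6434973 (93.82), 7078510 to 7080569 (37.62) and 1153071 to 1154914 (67.04). None of the 5 widest was among the 10 highest.

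Rank correlation of width and score was lower on V than on each of the other autosomes. Spearman's rho across the 247 peaks of V was 0.237, against 0.446 across 366 peaks on I, 0.393 across 239 on II, 0.497 across 286 on III and 0.302 across 410 on IV. These are descriptions across peaks of the same list, which share its libraries and its peak caller. Within V the 38 peaks over 1000 bp had a median score of 77.3 and the 209 narrower ones 51.3, so the wide peaks scored higher at the median, a difference that was not tested. The median of the wide peaks was 77.3 on V, against 136.2 for 59 on I, 89.8 for 20 on II, 118.8 for 49 on III and 68.8 for 101 on IV. Of the 38, 12 scored over 100 (31.6%) and 11 scored under 40 (28.9%). The summit lay near the middle of the peak on average, at a median of 50.6% of its width (interquartile range 38.5 to 60.4).

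Each peak name ends in a number that rises along the chromosome, and these numbers were counted in the sparse arms of V. They are read here as positions in a longer list from which the deposited peaks were drawn, which the labels do not state. On V they run from 10998 to 15822. Between the first and the last listed peak of each part, there were 233.0 numbers per Mb on the left, 268.7 in the middle and 201.1 on the right. The highest of these was 1.34 times the lowest, where the listed peaks differed 2.98 times between parts. The share of numbers that were listed was 4.75% on the left (95% Wilson interval 3.81 to 5.90), 7.20% in the middle (6.09 to 8.50) and 3.20% on the right (2.39 to 4.29). By part, the other autosomes ran from 7.27% in the left part of II to 40.4% in the left part of III. The left and right parts of V thus had the lowest listed shares of all autosomal parts. The middle part of V came next, close to the left part of II (6.04 to 8.74). Over whole chromosomes the listed share was 5.12% on V, 10.7% on I, 12.4% on II, 14.4% on III and 11.3% on IV. The numbers per Mb over whole chromosomes were 235.5 on V, 227.1 on I, 127.1 on II, 144.8 on III and 209.8 on IV. V thus had the most numbers per Mb of the autosomes and the smallest listed share. The other middle parts had 164.1 numbers per Mb on I, 58.1 on II, 56.6 on III and 137.6 on IV.

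On each of the other autosomes the numbers varied more than the listed peaks. Between the parts of a chromosome the numbers per Mb differed 1.81 times on I, 7.09 times on II, 9.81 times on III and 4.60 times on IV, while the listed peaks differed 1.38, 1.82, 2.19 and 3.76 times. In the 26 long gaps of V there were 2074 unlisted numbers, or 200.6 per Mb, and between 91.2 and 332.5 per Mb in each. In the longest gap, of 904872 bp, there were 227, and in the second longest 176. Stretches of V without a listed peak were thus not without numbers. Whether the unlisted peaks fell below the score limit of 30 or were removed for another reason was not tested.

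Between the 3 parts, ELT-2 peaks were spread more evenly along V than H3K4me3 peaks. By part, the counts for H3K4me3 and ELT-2 were 76 and 43 on the left, 128 and 49 in the middle, and 43 and 40 on the right. The middle part held 51.8% of H3K4me3 peaks and 37.1% of ELT-2 peaks, an odds ratio of 1.82 (95% CI 1.16 to 2.88; p = 0.00695 by Fisher's exact test, two-sided, and adjusted p = 0.0174). This test, too, treats neighbouring peaks of a list as independent. V was proposed for description with such results known, so the test is not independent evidence of the difference. Over the 20 full 1 Mb windows the H3K4me3 count ran from 2 to 25 and the ELT-2 count from 3 to 15. The variance of the counts over their mean was 4.04 for H3K4me3 and 1.77 for ELT-2. Ranges and this ratio grow with the number of peaks, 247 for H3K4me3 and 132 for ELT-2 on V. They therefore do not by themselves compare how evenly the lists are spread. Across these windows Spearman's rho between the counts was 0.112 and Pearson's r 0.163, given as a description of windows of 1 chromosome.

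The difference between the antibodies was not seen among the higher-scoring peaks of both lists, for which the interval was wide. Among peaks above the median score of their own list, 42.2% of H3K4me3 peaks and 45.8% of ELT-2 peaks were in the middle part. This made the odds ratio 0.865, in the other direction (95% CI 0.459 to 1.63; p = 0.652 by Fisher's exact test, two-sided, and adjusted p = 0.911). Of the ELT-2 peaks of V not above that median, 26.7% lay in the middle part (95% Wilson interval 17.1 to 39.0, against 34.8 to 57.3 for those above it), a difference between score classes that was not tested. With the middle 50% of the span in place of the middle part, the odds ratio was 1.71 and the adjusted p 0.0515.

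**Figure D5:**
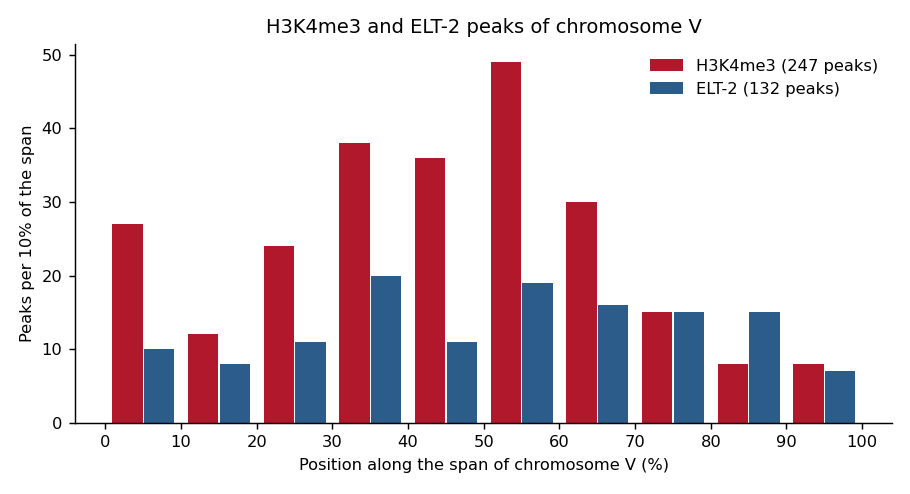
Number of H3K4me3 and ELT-2 peaks in each 10% of the span of chromosome V. H3K4me3 counts run from 8 to 49 with the highest bar from 50% to 60%, ELT-2 counts run from 7 to 20, and from 80% to 90% there are 8 H3K4me3 and 15 ELT-2 peaks.

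In the right part the counts of both lists were close, with 43 H3K4me3 and 40 ELT-2 peaks. Beyond 16 Mb, a limit chosen after the values were seen, there were 17 H3K4me3 and 28 ELT-2 peaks. In 6 of the 20 full windows of V the ELT-2 count was the higher. These windows included 16 to 17 Mb, with 5 H3K4me3 and 9 ELT-2 peaks, and 17 to 18 Mb, with 3 and 9. The fullest ELT-2 window, from 6 to 7 Mb, held 17 H3K4me3 and 15 ELT-2 peaks, and its median H3K4me3 score of 77.38 was the highest of any window with 5 or more peaks. By contrast the windows from 9 to 10 Mb and from 12 to 13 Mb each held 20 H3K4me3 peaks and 3 ELT-2 peaks.

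The long H3K4me3 gaps were not empty of ELT-2. Of the 26 gaps over 200 kb, 22 contained at least 1 ELT-2 summit, and 63 of the 132 ELT-2 peaks of V lay in such gaps. That is 6.10 ELT-2 peaks per Mb inside the gaps, against 6.70 per Mb in the rest of V between its first and last H3K4me3 summits. The longest gap held 8 ELT-2 peaks, with scores up to 105.5. The second longest held 3, and one of them, from 18346052 to 18346420, was the second-highest ELT-2 peak of V with a score of 320.8. It lay 259083 bp from the nearest H3K4me3 summit.

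Of the 5 highest ELT-2 peaks of V, 4 lay 82547 to 259083 bp from the nearest listed H3K4me3 summit. The highest, from 8768444 to 8768849 with a score of 341.3, lay 137492 bp from the nearest H3K4me3 summit, that of a peak scoring 35.63. The third and the fifth, with scores of 192.6 and 147.5, lay 82547 and 90870 bp away. Nearer was the fourth, from 11235753 to 11236338 with a score of 153.3, which lay 7766 bp from the second-highest H3K4me3 peak of V. Of all 14 ELT-2 peaks of V that scored over 100, 5 had an H3K4me3 summit within 10 kb (35.7%), against 27 of all 132 (20.5%), a difference that was not tested. The 2 ELT-2 groups of 3 or more peaks on V, starting at 6407571 and 13372622, had their nearest H3K4me3 summits 13775 and 87383 bp away.

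ELT-2 summits of V lay farther from H3K4me3 than those of the other autosomes, beside a sparser H3K4me3 list on V, whose part in this was not tested. The median distance was 35552 bp on V, against 18334 bp on I, 26750 bp on II, 16343 bp on III and 15647 bp on IV. It was 83928 bp in the right part of V, 31199 bp on the left and 21990 bp in the middle. In the right part 18 of 40 ELT-2 summits (45.0%) lay over 100 kb from any H3K4me3 summit. Seen from H3K4me3, 33 of the 247 peaks of V (13.4%) had an ELT-2 summit within 10 kb. That share was 11.8% on the left, 14.1% in the middle and 13.95% on the right, so it varied little between parts.

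Only 4 ELT-2 peaks of V overlapped a H3K4me3 peak, 3.03% of 132 (95% Wilson interval 1.19 to 7.53), against 7.35% on I, 13.6% on II, 6.82% on III and 14.6% on IV. All 4 were in the left and middle parts, and the H3K4me3 peaks involved scored 30.86 to 33.32, near the lowest value listed. At 4784587 to 4784806 a H3K4me3 peak of 220 bp, the narrowest of V, shared 210 bp with an ELT-2 peak that scored 65.0. At 2031294 to 2031540 the H3K4me3 peak scored 31.32 and the ELT-2 peak 31.12, with summits 30 bp apart. At 7642531 to 7643261 the H3K4me3 peak was 731 bp wide and the ELT-2 peak 459 bp, with summits 44 bp apart. At 9202901 to 9203408 the summits lay 317 bp apart. At the first 3 of these sites the summits nearly coincided, and none of the 4 involved a high-scoring H3K4me3 peak. If regions bound by many factors were removed, as the names of the lists read, overlaps there would be missing.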

How the data were processed

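The authors deposited, for each antibody, peaks and summits in separate lists with the peak caller's score, and no value per library. Per the submitters' processing notes, Bowtie 1.1.0, MACS2 2.0.9 and bedtools were used with the build ce10. Combination of replicates, choice of control and scale of the score were not given in the sources used here. List names read as removal of IgG peaks, blacklisted and high-occupancy regions, and every score was above 30.

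The group of each of the 12 libraries came from the labels. A chromosome's span reached from its first to its last peak in either list. Fisher's exact test, two-sided, was applied to 5 pairs of shares, with p adjusted by the Benjamini-Hochberg method at a threshold of 0.05. Odds ratios are conditional estimates, shares have Wilson and densities exact Poisson intervals. The gap limit of 200 kb, the score steps, the 300 bp pairs and the use of running numbers were chosen after the values were seen. Peaks named are the 10 highest, 5 widest, first and last H3K4me3 peaks of V, those at the 5 longest gaps, groups of 4 or more, overlaps with ELT-2 and the 5 highest ELT-2 peaks; others named were chosen after their values were seen. The members and lists were chosen with earlier results of these data known. Routines were tested on simulated data. Python 3.11.15, numpy 2.4.6, pandas 2.3.3, scipy 1.17.1 and matplotlib 3.10.9 were used.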

Additional observations from a re-analysis of the deposited data

How the results depend on the processing

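The larger share of peaks in the middle part on V than on I to IV kept its direction under all 9 alternatives (odds ratio 1.60 to 3.34) and its call under 8, the exception being peaks above the list median (1.60, adjusted p = 0.0609 from Fisher's exact test). For width, the odds ratio of V over I to IV turned to 0.840 with the upper quartile as the limit, 0.990 with peaks within 5000 bp counted once, 0.812 above the list median score and 0.977 without chromosome II. For score, it moved to 0.606 and passed with the upper quartile as the limit. For neighbours, it turned to 0.906 within 10000 bp, 0.788 within 20000 bp, 0.930 without II and 0.976 without III. None of the width or neighbour alternatives passed (smallest adjusted p = 0.25 and 0.158, Fisher's exact tests). For H3K4me3 over ELT-2 on V, it was 1.71 with the middle 50% of the span, which no longer passed, and 0.865 above the list medians, and it passed under the other 3 alternatives. The causes were not tested. No paired analysis was possible because the lists hold no value per library, and for the same reason no replicate could be left out. Without read depth, the limit below which a peak would be missed is unknown.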
